A study of Mus musculus with 23 samples.

Results

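Hsp90ab1 encodes Hsp90 beta, the constitutively made cytosolic form of the Hsp90 chaperone. The chaperone uses ATP to fold and hold a large set of client proteins, among them kinases and steroid receptors, and its mRNA is abundant and well translated in proliferating cells. Upf1 is a helicase on which nonsense-mediated mRNA decay depends, a pathway coupled to translation termination. Translating ribosomes displace Upf1 from the coding part of an mRNA. Cycloheximide stalls ribosomes during elongation, so it blocks translation and the decay that depends on it.

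The values below come from 10 CLIP-seq libraries of v6.5 mouse embryonic stem cells. In CLIP-seq, ultraviolet light links proteins to the RNA they touch, an antibody pulls the protein down, and short fragments of the linked RNA are sequenced. The 4 groups were Upf1 antibody with cycloheximide (2 libraries, labelled A1 and A2), Upf1 antibody from untreated cells (3 libraries, A1, A2 and I), rabbit IgG with cycloheximide (2 libraries, A1 and A2) and rabbit IgG from untreated cells (3 libraries, A1, A2 and I). Treated cells were given 100 µg/ml cycloheximide for 2 hours, and all cells received 400 mJ/cm2 of light at 254 nm. The cells had been grown on feeder fibroblasts and were taken off them before irradiation. No label says that replicates were separate cultures, so the p-values measure the spread between these libraries, which may be technical. The study's mRNA-seq and ribosome profiling libraries were not used here, so more Hsp90ab1 mRNA and more linked RNA per mRNA cannot be told apart.

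The gene was selected on its values in these data. It was chosen by the contrast of Upf1 CLIP with cycloheximide against Upf1 CLIP from untreated cells, in which 3 of its regions had more alignments. That contrast is therefore described with no test. The locus is 1 interval of 6001 nt in the mouse genome, build mm9, on the minus strand of chromosome 17. Its members are the distinct alignments (chromosome, start, end and strand) that start and end inside it. There were 444 of them, of 366484 distinct alignments in the 10 libraries, and 29 of the 444 were spliced, meaning that they spanned more than 60 nt. The outermost alignments reached 45704781 and 45710205, a stretch of 5425 nt, and the 5′ end of the interval lies 295 nt upstream of the second of these. RefSeq lists Hsp90ab1 on the same chromosome with a length of 5484 nt in a later build. No alignment lay on the opposite strand. With no mm9 annotation at hand, exons, introns and UTRs are not named, and positions are given as distances from the 5′ end of the interval.

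The libraries differed in ways that touch every result. They held 7215 to 97651 distinct alignments. Reads were 34 nt long in Upf1 untreated A1 and I and in IgG untreated I, and 38 nt long in the other 7 libraries, so read length and treatment overlap. Alignments shorter than 30 nt made up at least 46.2% of each of the 4 cycloheximide libraries and 9.89% to 38.5% of the 6 untreated ones. A molecule here is an alignment together with its 2 random letters, which were put on by ligation before amplification. Many molecules were found in more than 1 library. They made up 81.6% and 85.4% of the molecules in the IgG cycloheximide libraries, 82.2% in IgG untreated A2, 28.8% to 36.1% in the Upf1 cycloheximide libraries and Upf1 untreated A2, and 0.796% to 7.20% in the other 4 libraries.

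Hsp90ab1 alignments were more frequent in each of the 4 cycloheximide libraries than in any untreated one, with either antibody. The interval held 120 and 111 distinct alignments in the Upf1 cycloheximide libraries A1 and A2. In the Upf1 untreated libraries A1, A2 and I it held 21, 3 and 21. Per 100000 distinct alignments of the library, the rate was 377 and 324 in Upf1 cycloheximide A1 and A2, against 21.5, 14.7 and 23.5 in Upf1 untreated A1, A2 and I. The lower treated library therefore lay far above the highest untreated one. With exact 95% Poisson intervals, which cover counting error only, the lowest treated rate had a range of 267 to 391 and the highest untreated rate one of 14.6 to 36.0. The means were 351 ± 37.5 with cycloheximide (SD, n = 2) and 19.9 ± 4.65 without (SD, n = 3), a ratio of 17.6. This is the contrast by which the gene was chosen.

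The IgG libraries, which pull down no chosen protein, showed the same direction, with higher mean rates than Upf1 at both treatments. How far lower Upf1 rates were shared over the genome is given below. The interval held 56 distinct alignments in IgG cycloheximide A1 and 85 in A2, against 2, 10 and 15 in IgG untreated A1, A2 and I. The rates were 776 and 431 per 100000 in IgG cycloheximide A1 and A2, against 19.4, 121 and 31.5 in IgG untreated A1, A2 and I. The groups did not overlap. The means were 604 ± 244 with cycloheximide (SD, n = 2) and 57.3 ± 55.4 without (SD, n = 3), a ratio of 10.5. The difference of 546 per 100000 had a two-sided exact permutation p of 0.1, the smallest that 2 libraries against 3 can give.

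**Figure D1:**
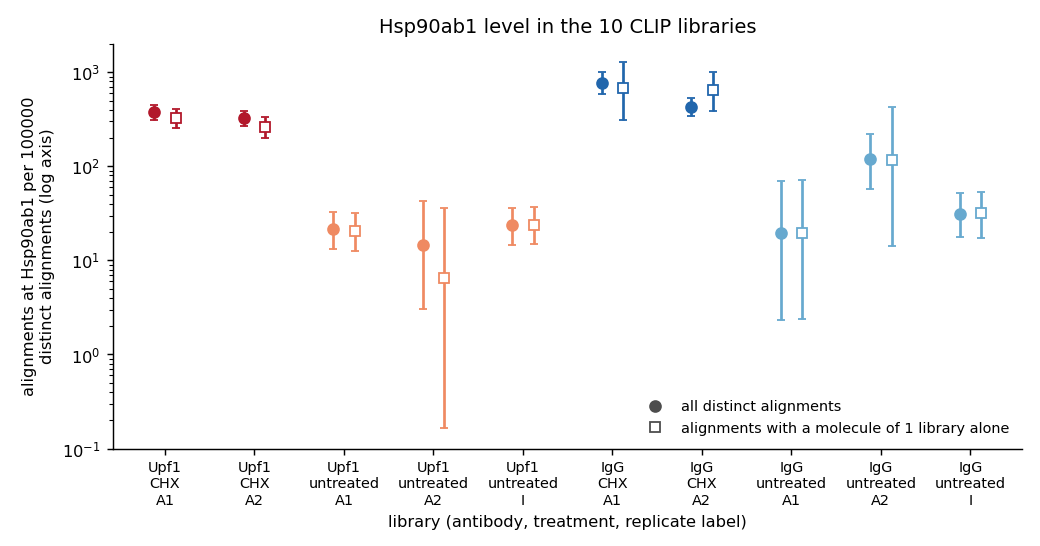
Rate of Hsp90ab1 alignments per 100000 distinct alignments (log axis) in each of the 10 libraries. Filled circles count all distinct alignments, open squares count alignments whose molecule no other library held, and bars are exact 95% Poisson intervals. The 4 cycloheximide (CHX) libraries lie between 324 and 776 by all alignments, and the 6 untreated libraries between 14.7 and 121.

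The interval was also fitted as 1 feature among 6 kb windows tiled over both strands of the genome, with limma-voom on all 10 libraries. The interval was set around the gene, whereas the other windows were cut without regard to genes and may hold only part of one. Over 1204 windows with at least 30 alignments, 10 were called higher in IgG cycloheximide than in IgG untreated libraries at an adjusted p below 0.05, which is 0.831% of those tested, and Hsp90ab1 was among them. Its log2 change was 3.65 ± 0.68 (SE), with a Benjamini-Hochberg adjusted p of 0.00258 in limma-voom and the lowest p of all 1204 windows. The median log2 change of all windows was -0.03. With either treated library left out, the arm holds 1 library, whose spread is assumed to be that of the other groups; the change was about as large and the call was lost. Without IgG cycloheximide A1 the log2 change was 3.59 with an adjusted limma-voom p of 0.0762, and without IgG cycloheximide A2 it was 3.81 with an adjusted limma-voom p of 0.0553.

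The IgG libraries are not taken as independent of the Upf1 libraries by which the gene was chosen, since they shared many molecules with them. At the interval, 77 of 86 molecules in IgG cycloheximide A1 and 109 of 130 in IgG cycloheximide A2 were also found in another library. Of these molecules, 57 in IgG cycloheximide A1 and 89 in IgG cycloheximide A2 had a match in a Upf1 cycloheximide library. In the Upf1 cycloheximide libraries A1 and A2, 91 of 185 and 98 of 178 molecules recurred elsewhere. Sharing was rare where reads were 34 nt long, with 1 of 30 molecules in Upf1 untreated A1, 0 of 21 in Upf1 untreated I and 1 of 20 in IgG untreated I. A match needs the same start and end, so an alignment filling a 34 nt read cannot match one filling a 38 nt read. Libraries with 34 nt reads can match each other, and each pair of them shared 0 or 1 molecules at the interval. In IgG untreated A1, with 38 nt reads, 5 of 16 molecules at the interval recurred, and 3.43% over the whole library. All libraries with 34 nt reads were untreated, so leaving out shared molecules can act unequally by treatment. Sharing was common in IgG untreated A2, where 15 of 17 molecules recurred. Only 2 letters tell molecules at 1 position apart, and 1 position in IgG cycloheximide A2 carried 14 different letter pairs. Molecules counted as shared may therefore be different ones with the same letters. How the same position and letters came to stand in several libraries was not tested.

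Counting only alignments with a molecule of 1 library alone, above and below the line, left the rates apart. They were 325 and 262 per 100000 in Upf1 cycloheximide A1 and A2, against 20.6, 6.49 and 24.1 in Upf1 untreated A1, A2 and I. In the IgG libraries they were 674 and 649 per 100000 in cycloheximide A1 and A2, against 19.6, 117 and 31.7 in untreated A1, A2 and I. The counts behind the IgG values were small, with 9 and 19 alignments in IgG cycloheximide A1 and A2 and 2, 2 and 14 in the untreated libraries. The exact 95% interval of IgG untreated A2 ran from 14.2 to 423 per 100000 and overlapped those of both treated libraries. In limma-voom on 6 kb windows the same restriction gave a log2 change of 2.62 ± 0.91 (SE) and an adjusted p of 0.399, so the IgG call was lost.

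**Figure D2:**
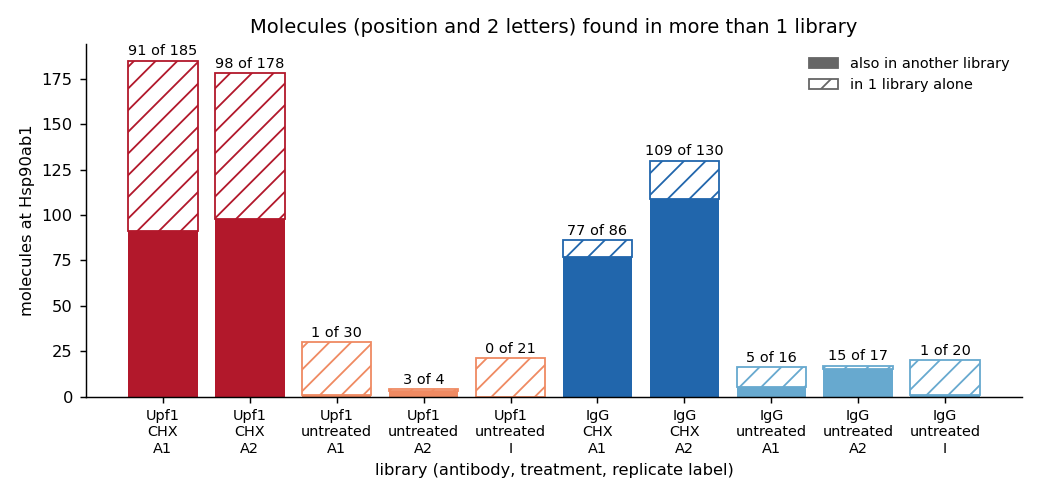
Molecules (a position with its 2 random letters) at Hsp90ab1 in each library, split into those also found in another library (filled) and those of 1 library alone (hatched). In IgG cycloheximide A1 and A2, 77 of 86 and 109 of 130 molecules recurred, and in the libraries with 34 nt reads 0 or 1 did. An alignment filling a 34 nt read cannot match one filling a 38 nt read, but libraries with 34 nt reads can match each other.

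Fragment length and read length also moved with treatment. At Hsp90ab1, alignments shorter than 30 nt made up 42.5% and 39.6% in the Upf1 cycloheximide libraries A1 and A2. They made up 37.5% in IgG cycloheximide A1 and 47.1% in A2. In Upf1 untreated A1, A2 and I they made up 0, 1 and 1 of the alignments, and in IgG untreated A1, A2 and I 0, 7 and 0. Counting only alignments of at least 30 nt, the rates were 416 and 392 per 100000 in Upf1 cycloheximide A1 and A2, against 25.3, 14.2 and 25.5 in Upf1 untreated A1, A2 and I. For IgG they were 961 and 425 per 100000 in cycloheximide A1 and A2, against 21.6, 59.0 and 35.7 in untreated A1, A2 and I. The treated libraries stayed apart from the untreated ones by this count too. Among libraries with 38 nt reads alone, the mean rate was higher with cycloheximide by 336 per 100000 in Upf1 CLIP, where 1 untreated library remained, and by 534 in IgG CLIP, where 2 remained.

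The level of Hsp90ab1 can be placed among the 1204 windows. It ranked 3 in each of the 4 cycloheximide libraries, behind a window of the ribosomal RNA contig and a window on the minus strand of chromosome 19 by the mean over those libraries. In Upf1 untreated A1, A2 and I it ranked 445, 358 and 170. In IgG untreated A1, A2 and I it ranked 85, 8 and 149. The ranks in untreated libraries rest on 2 to 21 alignments each. In IgG untreated A1, with 2 alignments, the median window rate was 0. A window covers the same length everywhere but holds different amounts of transcript, so these ranks compare windows, not levels per transcript length. Windows other than the Hsp90ab1 interval may also cut a gene into parts, which lowers their level.

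No enrichment of Hsp90ab1 by the Upf1 antibody over IgG was detected. The mean rate over all Upf1 libraries was 124 per 100000 below the mean over all IgG libraries, with a two-sided exact permutation p of 0.05 within treatment, which is not below the threshold of 0.05. These rates are scaled by library totals. On that scale the median log2 ratio of Upf1 to IgG was -0.27 over the 1204 windows, with -0.83 for Hsp90ab1. Over the 2357 merged regions tested below the median was -0.90, and the 9 regions of Hsp90ab1 ran from -2.06 to -0.29. The median window and region were thus also below 0 on this scale. As a window, Hsp90ab1 lay further below 0 than the median window. In libraries that share a treatment and a replicate label, Upf1 was above IgG in 1 of 5 pairs. With cycloheximide the means were 351 in Upf1 and 604 in IgG libraries, with an exact permutation p of 0.333, the smallest that 2 against 2 can give. In untreated cells the means were 19.9 in Upf1 and 57.3 in IgG libraries, with an exact permutation p of 0.3. The IgG excess in untreated cells came with 1 library, IgG untreated A2 at 121, since the other two IgG rates of 19.4 and 31.5 lay beside the Upf1 rates. As 1 window of 6 kb, the log2 ratio of Upf1 to IgG was -0.41 ± 0.50 (SE), with an adjusted p of 0.998 in limma-voom, and 0% of the 1204 windows were called in either direction (32 had an unadjusted p below 0.05). The Upf1 cycloheximide libraries enter this comparison as well as the choice of the gene.

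Along the interval, alignments fell into separate clusters with empty stretches between them. Only 31 of 60 windows of 100 nt held an unspliced alignment in any library. In the Upf1 cycloheximide libraries 28 windows were hit, in Upf1 untreated 17, in IgG cycloheximide 24 and in IgG untreated 12. The first 1200 nt from the 5′ end held no alignment in the cycloheximide libraries, and 3 alignments in Upf1 untreated and 1 in IgG untreated libraries.

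By mean rate the heaviest window with cycloheximide was the one at 4600 to 4700 nt, at 49.9 per 100000 in Upf1 and 75.7 in IgG libraries. It held 33 unspliced alignments in Upf1 cycloheximide and 16 in IgG cycloheximide libraries, and the window at 3100 to 3200 nt also held 16 in the last group, at 66.9 per 100000. The same window held 8 alignments in Upf1 untreated and 4 in IgG untreated libraries. The window at 3000 to 3100 nt held 23 alignments in Upf1 cycloheximide libraries and 6 in Upf1 untreated libraries. For IgG it held 10 alignments with cycloheximide and 5 without. The window at 3100 to 3200 nt held 22 in Upf1 cycloheximide and 3 in Upf1 untreated libraries, and 16 in IgG cycloheximide and 3 in IgG untreated libraries. The window at 1900 to 2000 nt held 21 alignments in Upf1 cycloheximide and 1 in Upf1 untreated libraries, and 10 in IgG cycloheximide and 1 in IgG untreated libraries. The 4 fullest windows of each group took 45.6% of its unspliced alignments in Upf1 cycloheximide, 54.8% in Upf1 untreated, 40.0% in IgG cycloheximide and 61.5% in IgG untreated libraries.

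**Figure D3:**
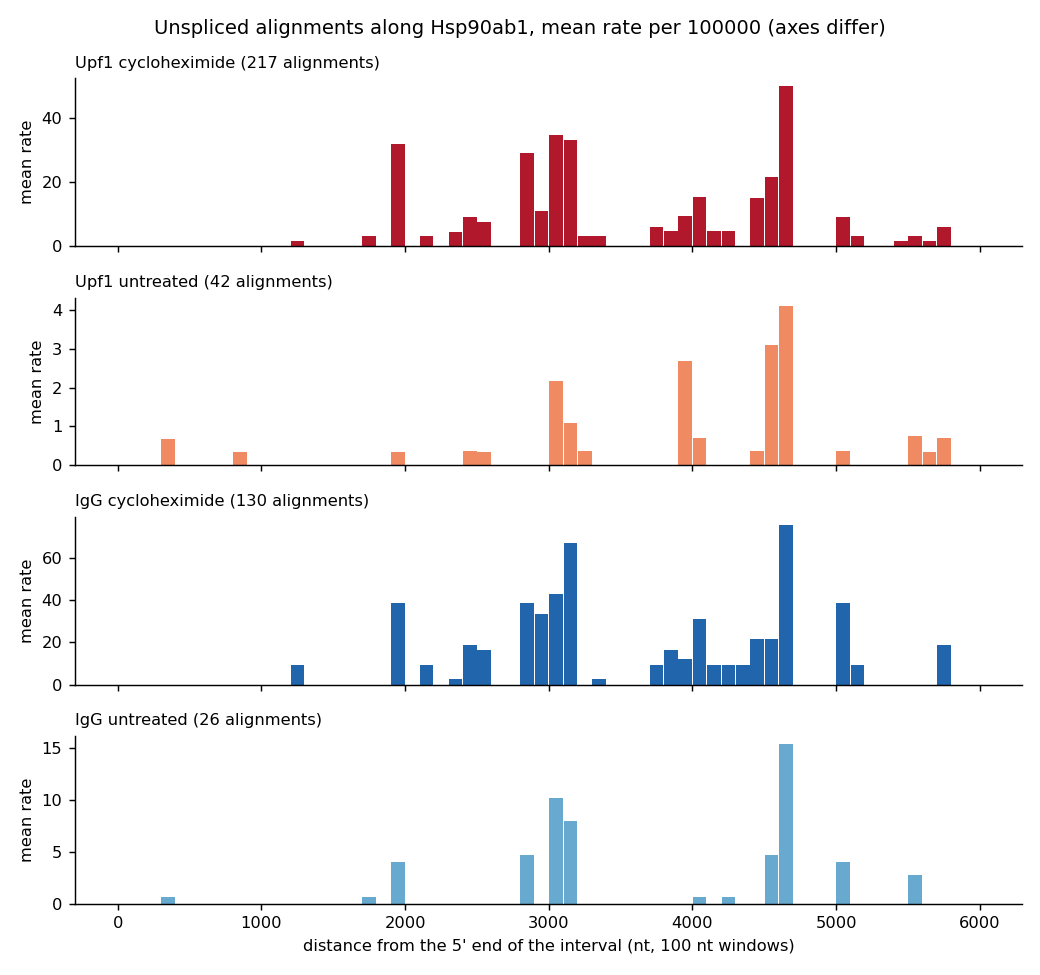
Unspliced alignments in 100 nt windows from the 5′ end of the interval to its 3′ end, as the mean rate per 100000 over the libraries of each group; the vertical axes differ. The window at 4600 to 4700 nt is the highest in each of the 4 groups, and 23 of the 24 windows hit in IgG cycloheximide libraries are also hit in Upf1 cycloheximide libraries.

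The treated profiles of the antibodies were alike in shape. Of 24 windows hit in IgG cycloheximide libraries, 23 were hit in Upf1 cycloheximide libraries. Pearson's r between their mean rates was 0.93 over the 60 windows, and it was 0.72 between Upf1 cycloheximide and Upf1 untreated libraries. Only 31 of the 60 windows held an unspliced alignment in any library, and windows empty in both groups raise r. The profiles rest on 217 unspliced alignments in Upf1 cycloheximide, 130 in IgG cycloheximide and 42 in Upf1 untreated libraries. A thin profile by itself can lower r, so these r values are not compared. These are descriptions across neighbouring windows of 1 RNA, and the treated libraries share molecules. The most 3′ 1000 nt of the interval held 16 of 231 alignments (6.93%) in Upf1 cycloheximide libraries, against 6 of 45 (13.3%) in Upf1 untreated libraries. In IgG libraries that stretch held 16 of 141 (11.3%) with cycloheximide and 5 of 27 (18.5%) without.

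Merging unspliced alignments at most 50 nt apart, in all libraries together, gave 17 regions in the interval, of which 9 had at least 10 alignments in at least 3 libraries and were tested among 2357 regions of the genome. The 8 untested regions held 1 to 8 alignments each, in 1 to 4 libraries. The 3 regions by which the gene was chosen lie at 45707145 to 45707517, 45707647 to 45707707 and 45708489 to 45708559. The first of these held 56 alignments in Upf1 cycloheximide libraries and 10 in Upf1 untreated libraries, and 35 in IgG cycloheximide and 8 in IgG untreated libraries. The second held 19 in Upf1 cycloheximide and 0 in Upf1 untreated libraries, and 10 in IgG cycloheximide and 2 in IgG untreated libraries. The third held 21 in Upf1 cycloheximide and 1 in Upf1 untreated libraries, and 10 in IgG cycloheximide and 1 in IgG untreated libraries. Together the 3 regions held 41.6% of the interval's alignments in Upf1 cycloheximide and 24.4% in Upf1 untreated libraries, and 39.0% in IgG cycloheximide and 40.7% in IgG untreated libraries. In the contrast that chose the gene, 7 of the 9 regions were called higher, where 3.44% of all regions were, and nothing is read from that count.

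A region outside those 3 was the second most populated of the interval. At 45705800 to 45706056 Upf1 cycloheximide A1 held 28 alignments and A2 held 29, against 5, 2 and 7 in Upf1 untreated A1, A2 and I. The IgG libraries held 12 and 14 alignments there with cycloheximide (A1 and A2) and 1, 4 and 1 without (A1, A2 and I). It was the one region with an alignment in all 10 libraries. A region near the 3′ end, at 45704896 to 45704989, had 2 alignments in Upf1 cycloheximide and 2 in Upf1 untreated libraries, which is 3.03 and 0.965 per 100000. It had 0 in IgG cycloheximide and 4 in IgG untreated libraries. All 4 of the last came from IgG untreated I, and the region was too thinly filled to be tested.

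In IgG CLIP none of the 9 tested regions was called with cycloheximide, at log2 changes from 2.24 to 3.92 and adjusted p between 0.222 and 0.470 in limma-voom. The cycloheximide libraries of both antibodies supplied 75% to 93.9% of the alignments of each of these regions, and so most of what let them pass the filter, so the direction of the 9 is not read as support. Without the filter, all 17 regions entered the fit, and 12 had positive and 5 negative log2 changes, from -0.98 to 3.38, and the lowest adjusted p in limma-voom was 0.365. Of the 5 negative ones, 2 had no IgG alignment. Over the genome 0% of the 2357 tested regions were called higher in this contrast, 1 region outside Hsp90ab1 was called lower, and 155 regions were higher with an unadjusted p below 0.05. The median log2 change over all 2357 was -0.08. Among the 9, the largest change was at 45706457 to 45706774, with a log2 change of 3.92 ± 1.09 (SE) and an adjusted limma-voom p of 0.222. That region held 7 alignments in IgG cycloheximide A1 and 8 in A2, against 0, 0 and 1 in IgG untreated A1, A2 and I. Where only regions with at least 30 alignments were tested, 1.69% of 415 regions were called higher. Of the 5 regions of Hsp90ab1 among them, those that begin at 45705800, 45706457, 45707145 and 45708489 were called higher, with adjusted limma-voom p of 0.0339, 0.0216, 0.0329 and 0.0339. The region that begins at 45707647 was not, with an adjusted limma-voom p of 0.106. These regions too passed the filter mainly through the cycloheximide libraries.

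For Upf1 against IgG over both treatments, 0% of the 2357 regions were called (69 had an unadjusted p below 0.05), and none of the 9 was. The log2 ratios of the 9 regions ran from -1.51 to 0.52. The most negative was the region at 45707647 to 45707707, with a log2 ratio of -1.51 ± 0.62 (SE) and an adjusted limma-voom p of 0.997. The most positive was the region at 45706457 to 45706774, with 0.52 ± 0.72 (SE) and an adjusted limma-voom p of 0.997.

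**Figure D4:**
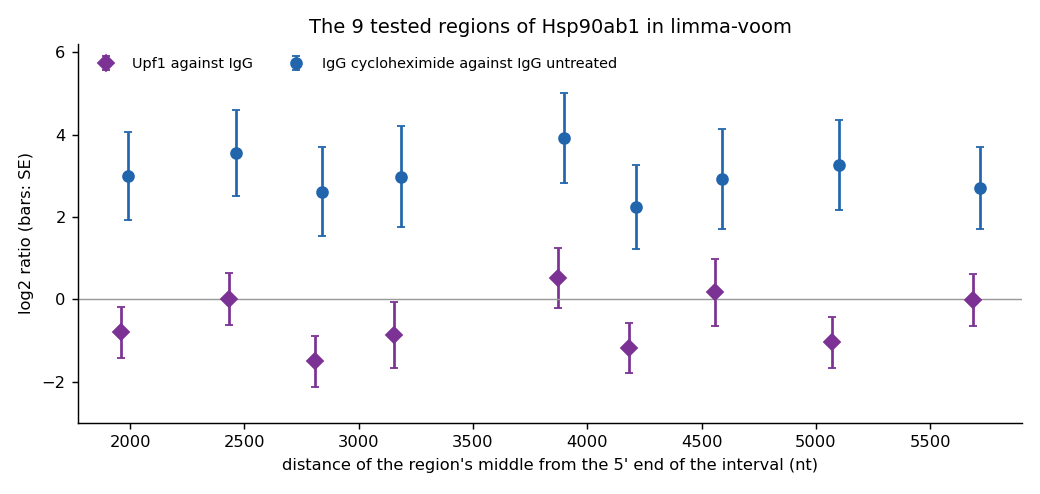
Log2 ratios with SE of the 9 tested regions of Hsp90ab1, placed by the distance of their middle from the 5′ end of the interval (nt). Circles give IgG cycloheximide against IgG untreated libraries, all between 2.24 and 3.92. Diamonds give Upf1 against IgG libraries, between -1.51 and 0.52.

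Spliced alignments, which join parts of the RNA across a gap in the genome, were present in 6 of the 10 libraries. They numbered 6 and 8 in the Upf1 cycloheximide libraries, and 3, 0 and 0 in Upf1 untreated A1, A2 and I. In IgG libraries they numbered 3 and 8 with cycloheximide (A1 and A2), and 0, 0 and 1 without (A1, A2 and I). As a share of the alignments at the interval, Upf1 cycloheximide A1 had 6 of 120 (Wilson 95% interval 2.31% to 10.5%) and A2 had 8 of 111 (3.70% to 13.6%). In Upf1 untreated A1 the share was 3 of 21 (4.98% to 34.6%). It was 0 of 3 in Upf1 untreated A2 and 0 of 21 in Upf1 untreated I, with upper limits of 56.1% and 15.5%. In IgG cycloheximide the share was 3 of 56 in A1 (1.84% to 14.6%) and 8 of 85 in A2 (4.85% to 17.5%). IgG untreated I had 1 of 15 (1.19% to 29.8%), and IgG untreated A1 and A2 had 0 of 2 and 0 of 10. The shares of the untreated libraries therefore rest on few alignments and differ among themselves, and no difference in the spliced share by treatment was read from them. Over the whole library, spliced alignments made up 4.30% to 5.78% in the cycloheximide libraries and 0.845% to 1.81% in the untreated ones.

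Of the 29 spliced alignments, 28 fell into 6 separate spans. The span from 45708102 to 45708386 held 12 of them at 7 positions, 8 in Upf1 cycloheximide and 0 in Upf1 untreated libraries, and 4 in IgG cycloheximide and 0 in IgG untreated libraries. The span from 45705489 to 45705821 held 10 at 4 positions, 3 in Upf1 cycloheximide and 0 in Upf1 untreated libraries, and 7 in IgG cycloheximide and 0 in IgG untreated libraries. The 3 spliced alignments of Upf1 untreated A1 lay at 2 other spans, and both of these had no spliced alignment with cycloheximide. The remaining alignment, in Upf1 cycloheximide A2, spanned 1374 nt.

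The stretches skipped in the 6 separate spans were nearly free of unspliced alignments. The span of 1374 nt was not included, and it covered whole regions. Among these were the regions at 45707647 to 45707707 and 45708489 to 45708559, with 31 and 33 unspliced alignments. Taking each span without the 38 nt at either end that the read itself can cover, 5 of the 6 held 0 unspliced alignments in all 10 libraries together, over stretches of 66 to 245 nt. The exception was the span from 45706757 to 45707213, seen once in IgG untreated I, where 3 unspliced alignments touched its inner 381 nt.

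Read ends recurred at fixed positions. At the interval, 258 different positions (start and end) accounted for the 444 alignments, 111 of them were seen in more than 1 library, and 2 were seen in 6 libraries. The most frequent 5′ end of the RNA fragments was 45705906, in 8 libraries. Molecules ending there numbered 23 in Upf1 cycloheximide and 4 in Upf1 untreated libraries, and 34 in IgG cycloheximide and 13 in IgG untreated libraries. The fragment from 45705881 to 45705906, 26 nt long, carried 12 and 14 different letter pairs in IgG cycloheximide A1 and A2, the most of any position. The 5′ end at 45707517 had 16 molecules in Upf1 cycloheximide and 0 in Upf1 untreated libraries, and 11 in IgG cycloheximide and 0 in IgG untreated libraries.

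IgG untreated A1 stood apart in redundancy. Its 34 lines at the interval lay at only 2 positions, or 17 lines for each distinct alignment, where the other 9 libraries had 1.14 to 3.47. Both positions carried 8 letter pairs each. Its rate of 19.4 per 100000 therefore rests on 2 alignments, with an exact 95% Poisson interval of 2.35 to 70.1.

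The 5 windows of 6 kb whose levels followed Hsp90ab1 most closely were ranked by Pearson's r of log2(rate per 100000 + 1) over the 10 libraries, against a median r of -0.17 over 1203 windows. The libraries are shared between windows, so the r values are a description. The closest was on the minus strand of chromosome 1, from 88248001 to 88254000, with r = 0.97. Its rates averaged 128 ± 10.9 in Upf1 cycloheximide (SD, n = 2) and 24.4 ± 4.63 in Upf1 untreated libraries (SD, n = 3), and 235 ± 59.7 in IgG cycloheximide (SD, n = 2) and 55.1 ± 46.6 in IgG untreated libraries (SD, n = 3).

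The next was on the minus strand of chromosome 5, from 31506001 to 31512000, with r = 0.96 and 46 alignments in all, followed by one on the minus strand of chromosome 10, from 62298001 to 62304000, with r = 0.96 and 37 alignments. A window on the plus strand of chromosome 5, from 88980001 to 88986000, had r = 0.95 and 31 alignments. The last lay on the same chromosome and strand as Hsp90ab1, from 35970001 to 35976000, with r = 0.94. Its rates averaged 63.9 ± 11.9 in Upf1 cycloheximide (SD, n = 2) and 20.8 ± 7.16 in Upf1 untreated libraries (SD, n = 3), and 72.7 ± 4.81 in IgG cycloheximide (SD, n = 2) and 30.2 ± 5.62 in IgG untreated libraries (SD, n = 3). Like Hsp90ab1, all 5 windows had higher mean rates in IgG than in Upf1 libraries with cycloheximide. The 5 windows were picked by likeness to Hsp90ab1 over these same libraries, so this shared direction is not read as a separate result. By rates scaled to library totals, it was also the direction of the median over the 1204 windows. That median rate was 13.9 and 10.1 in IgG cycloheximide A1 and A2, against 6.29 and 5.84 in Upf1 cycloheximide A1 and A2. These libraries held 7215, 19711, 31792 and 34220 distinct alignments in that order. The median window thus held very few alignments, and its rate moves with depth. Under TMM scaling over both treatments, the median log2 ratio of Upf1 to IgG over the windows was 0.14, the other direction.

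**Figure D5:**
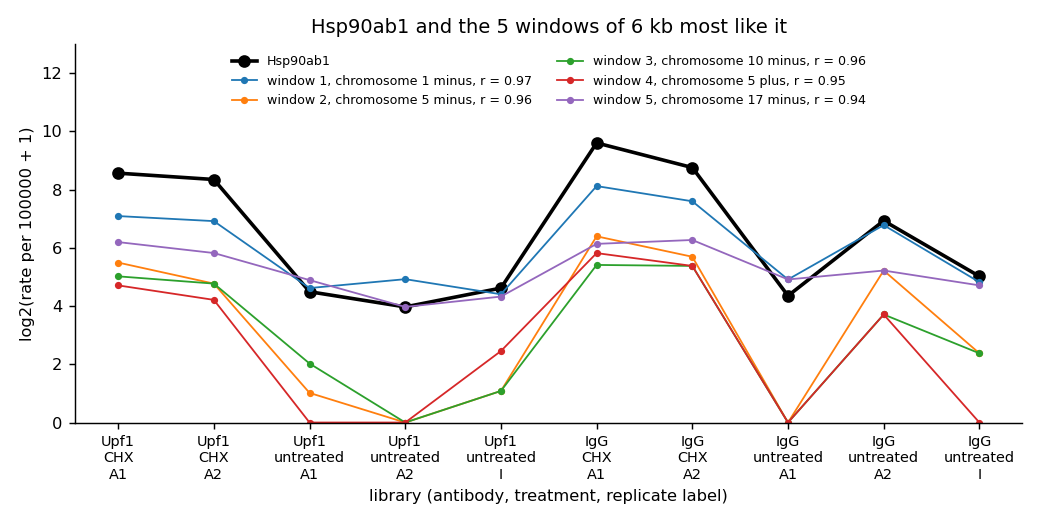
Level of Hsp90ab1 (black) and of the 5 windows of 6 kb most like it in the 10 libraries, as log2(rate per 100000 + 1). Pearson's r over the 10 libraries runs from 0.94 to 0.97, and Hsp90ab1 is above all 5 windows in the 4 cycloheximide (CHX) libraries.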

How the data were processed

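The deposited files are BED lists of CLIP-seq alignments for 10 libraries, coordinates in mm9. Tools listed in the submitters' processing notes are Bowtie 0.12.6, TopHat 1.4.0 and Cufflinks 1.3.0, with no role given. Per the labels' protocols, the 5′ adapter carried 2 random nucleotides for filtering amplified copies. The score column the authors deposited holds 255 in every line and was not used.

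Hsp90ab1, its interval and the comparisons were chosen with earlier results of these data known. Lines were reduced to distinct alignments per library, giving rates per 100000. Rates were compared by exact two-sided permutation tests. Unspliced alignments were merged into regions (gap up to 50 nt), tested with at least 10 alignments in at least 3 libraries. Regions and 6 kb windows (at least 30 alignments) were fitted with limma-voom (limma 3.58.1, R 4.3.3), with TMM scaling coded by hand and Benjamini-Hochberg adjustment over all features, at a threshold of 0.05. The fit code was also run on independent simulated counts. These held no molecules shared between libraries, so that run does not bear on this feature of the data. Python 3.11.15 and scipy 1.17.1 gave the other values. The window fits, the counts of alignments of at least 30 nt, and the log2 rates were added after seeing the data. Named items are Hsp90ab1, its regions, and the 5 windows of 6 kb most like it. Lists of other chaperone genes and of stem cell and fibroblast markers were not analysed here, for want of an mm9 annotation. Depth was 7215 to 97651 distinct alignments per library, and intervals cover counting error only.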

Additional observations from a re-analysis of the deposited data

How the results depend on the processing

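The mean Upf1 rate was below the mean IgG rate at the Hsp90ab1 interval under each alternative run, except without IgG cycloheximide A1, where the difference was 1.55 per 100000. Leaving out 1 library gave -188 to 1.55. Leaving out a library changes the mix of treatments within its antibody, and the mean of the within-treatment differences stayed negative, from -231 to -58.8. The difference had an exact permutation p below 0.05 with distinct molecules (-198, p = 0.0167), with unspliced alignments alone (-122, p = 0.0333) and without IgG untreated A1 (-188, p = 0.0167). The p of 0.0167 is the smallest that the labels allow. In the 3 regions of the choice it was -44.6, with no test, since Upf1 values picked them. With replicate labels as a replicate block it was -124 (exact permutation p = 0.125). In untreated cells, deviations over windows of libraries with the same label correlated between antibodies at 0.06, 0.41 and 0.40 (A1, A2 and I). For unlike labels they correlated at -0.45 to 0.30. With cycloheximide each antibody had 2 libraries, whose deviations mirror each other, so the value of -0.03 there cannot tell labels apart. The labels were not taken as pairs in the main test, and whether untreated libraries were paired was not settled. As 1 window in limma-voom, Upf1 against IgG turned to 0.19 with every line counted.

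The difference between IgG cycloheximide and IgG untreated libraries was positive under each alternative run, 374 to 719 per 100000 with 1 library left out, 534 with the replicate block and 196 in the 3 regions. The window change of 3.65 was 3.33 to 4.18 with 1 library left out, 5.21 with every line counted, and 2.62 once molecules of several libraries were left out. For the contrast of the choice in Upf1 CLIP, the difference of 331 per 100000 was 448 with every line, 453 with distinct molecules, 277 with molecules of 1 library, 142 in the 3 regions, 382 with alignments of at least 30 nt, and 333 with the replicate block. Leaving out 1 library gave 304 to 358.

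In the IgG contrast 1 region was called, lower and outside Hsp90ab1. The count was 0 with no filter, 0 with a trended prior, 0 without shared molecules, 0 with the replicate block and 0 to 1 with 1 library left out. Among regions of at least 30 alignments 8 were called, 7 higher and 1 lower. For Upf1 against IgG 0 regions were called, against 3 under library totals and 0 to 1 with 1 library left out. Library totals moved the median log2 ratio of all regions to -0.90, against -0.03 under TMM. Of the 5 windows most like Hsp90ab1, 1 was among the 5 closest over the Upf1 libraries alone. Counts of 2 to 21 alignments in each untreated library limit the precision of every ratio.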
